A study of Arabidopsis thaliana with 18 samples.

Results

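The cytosolic ribosomal protein genes described here are 36 Arabidopsis thaliana loci chosen by their locus identifiers, of 28642 loci in the deposited tables. The list holds 23 proteins of the large (60S) subunit, 12 of the small (40S) subunit and RACK1A, a scaffold protein that sits on the small subunit. For most families it holds some of the near-identical gene copies of the genome and not the others, which are described below as a separate list of 176 loci. RNA was sequenced from the first pair of leaves of P10 (35S::PID10), P21 (35S::PID21) and WT (Col-0) at 16 and 9 days after stratification (DAS). P10 and P21 are lines that carry the PINOID kinase gene (PID) behind the 35S promoter, which is active in most cell types, so that the gene is not limited to the cells in which it is normally expressed. All plants grew on the same agar medium with sugar, under long days, without any treatment. Of 18 labelled libraries 16 are analysed here, 3 for P10 and for WT at each day and 2 for P21 at each day, and P21 replicate 1 of both days was not analysed here. The comparisons are each line against WT at the same day, P10 against P21 at 16 DAS, 16 against 9 DAS within each genotype, and the difference between a line's change over the days and that of WT.

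Cytosolic ribosomes translate the messages of nuclear genes, and dividing and growing cells need many of them. The large subunit holds the centre that joins amino acids, the small subunit reads the message, and an acidic stalk on the large subunit recruits the elongation factors. In plants each ribosomal protein is encoded by a small family of genes, and the TOR kinase, acting through S6 kinases that phosphorylate RPS6, is known to tune ribosome production to nutrients and growth. Mutants in several of these genes are known for narrow or pointed leaves, among them the PIGGYBACK loci RPL10aB, RPL9C and RPL5A and the POINTED FIRST LEAF loci RPS18A and RPS13B.

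Upstream sequence is shown for the RPS6 pair, whose copies changed in ratio between the days. Ribosomal protein genes of plants often carry site II elements (here TGGGCC or TGGGCT) and telo boxes (here AAACCCTA) near their start. Both were searched on both strands in the 250 bases before the annotated start of each gene in the RefSeq annotation of TAIR10.1, whose chromosomes share coordinates with the TAIR10 files. A site II element was found for 22 of the 36 genes (61.1%), for 123 of the 176 other cytosolic ribosomal protein genes (69.9%) and for 10 of 28 plastid ribosomal protein genes (35.7%), against 5264 of all 27443 protein-coding genes (19.2%). The telo box was found for 3 of the 36 genes (8.3%), RPSaA and RPL28A among them, for 35 of the 176 other cytosolic ribosomal protein genes (19.9%), for 2 of 28 plastid ribosomal protein genes (7.1%) and for 4.5% of all protein-coding genes. The last 120 bases before the start, read 5' to 3' on the strand of the gene, follow for RPS6A (chr4:15347805-15347924, minus strand) and RPS6B (chr5:3260255-3260374, minus strand). Capitals mark the motif matches.
RPS6A: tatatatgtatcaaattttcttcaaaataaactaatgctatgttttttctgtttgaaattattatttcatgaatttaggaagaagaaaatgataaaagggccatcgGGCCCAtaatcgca
RPS6B: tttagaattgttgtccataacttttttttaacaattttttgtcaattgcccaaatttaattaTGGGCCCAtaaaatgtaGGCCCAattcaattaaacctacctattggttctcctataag
By the coordinates of the deposited files the genes themselves span chr4:15346072-15347727 (RPS6A) and chr5:3258474-3260234 (RPS6B). RefSeq places the starts upstream of these ends, so the windows depend on the annotation. RPS6A held 1 match of site II, and in RPS6B matches of site II on both strands share bases. A match is a description of the letters and not of a bound site.

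Unique gene reads numbered 1193042 to 4695692 per library, with a median of 2631344. PID (AT2G34650), the gene behind the 35S promoter, was at 755, 748 and 882 CPM in P10, 368 and 631 CPM in P21 and 3.19, 4.22 and 3.73 CPM in WT at 16 DAS, and at 509.5, 446 and 522 CPM in P10, 939.8 and 961 CPM in P21 and 4.73, 5.92 and 5.37 CPM in WT at 9 DAS. CPM are the unique gene reads of a gene relative to the TMM-scaled library total, which sets the bulk of genes level between libraries. PID thus separated both lines from WT, and P10 from P21 within each day, as labelled. The day of a library is not checked by PID. The labels give a second library index (a short tag added for pooling) that is shared by P10 and WT at 9 DAS and differs from that of all other libraries, so index and line cannot be told apart in P21 against WT at 9 DAS, nor index and day in WT and in P10 at 16 against 9 DAS. The summed level of 5 markers of green leaf cells at 16 DAS was 47178 to 57148 CPM in P10, 75124 to 79405 CPM in P21 and 63684 to 73873 CPM in WT, with no overlap between genotypes. At 9 DAS it was 48820 to 61597 CPM in P10, 48711 to 56540 CPM in P21 and 51629 to 55902 CPM in WT, and the genotypes overlapped. Of the shoot meristem and root markers, 1 of 4 and 1 of 3 passed the filter on low counts, and WUS was at 0 in every library. PYK10, an enzyme abundant in roots and seedlings, moved with the groups at 9 DAS, at 94.4, 106 and 94.6 CPM in P10, 82 and 110.2 CPM in P21 and 208, 218 and 199.6 CPM in WT, and was at 6.7 to 47 CPM at 16 DAS. KNAT1, a meristem gene, stayed under 5 CPM in every library, at 0.51 to 4.73 CPM at 9 DAS and 0 to 0.40 CPM at 16 DAS. Between the days KNAT1 fell at an adjusted p under 0.05 in WT and P21 and did not pass in P10. STM, another meristem gene, did not pass the filter and was at 0.49 to 3.93 CPM at 9 DAS and at 0 at 16 DAS. The part of these in the results was not tested. The clock genes CCA1 and LHY had their lowest values of 9 DAS in replicate 2 of both P10 and WT, with LHY at 11.9 CPM in P10 replicate 2 and 3.95 CPM in WT replicate 2, against 67.1 to 451 CPM in the other libraries of that day. In bulk leaves, fewer cells of a type and less RNA per cell cannot be told apart.

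All 36 genes passed the filter, which kept 16499 genes. Per kilobase of gene region, introns included, the highest mean level belonged to RPL27aC (AT1G70600), a large-subunit protein known for roles in leaf and ovule development, at 498 CPM per kilobase. RPL10A (AT1G14320) and RPL8A (AT2G18020), which lie close to the catalytic centre, followed at 352 and 340.3 CPM per kilobase. RPL10B (AT1G26910) at 10.9, RPL3B (AT1G61580) at 17.05 and RPL9D (AT4G10450) at 39.7 CPM per kilobase were the lowest. Read counts of single genes were between 3, for RPL10B, and 2914, for RPL3A. Between 93.4% and 100% of the reads of each gene were unique to it, except RPL10C (89.4%) and the neighbouring near-identical copies RPL9B (51.6%) and RPL9C (49.4%), whose reads cannot be told apart over much of their length.

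Summed over the 36 genes, the level was lowest in P10 at 16 DAS and highest in WT at 9 DAS. At 16 DAS the sum was 5916, 6477 and 5115 CPM in P10, 8893 and 12094 CPM in P21 and 8665, 9280.4 and 8094 CPM in WT, so that every P10 library lay below every WT library while those of P21 overlapped WT. At 9 DAS it was 10964, 8679 and 9846 CPM in P10, 6864 and 8198 CPM in P21 and 12575, 11534 and 15435 CPM in WT, with both lines below WT and without overlap. As a share of all unique gene reads, which uses no scaling factor, the 36 genes took 0.587% ± 0.0856 in P10 (SD, n = 3), 0.888% ± 0.199 in P21 (SD, n = 2) and 0.749% ± 0.042 in WT (SD, n = 3) at 16 DAS. At 9 DAS the shares were 1.07% ± 0.0991 in P10 (SD, n = 3), 0.833% ± 0.115 in P21 (SD, n = 2) and 1.44% ± 0.201 in WT (SD, n = 3). Libraries of one group moved as a whole: P21 replicate 3 at 16 DAS was above replicate 2 for all 36 genes, and WT replicate 3 at 9 DAS was the highest of its group for all 36.

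**Figure D1:**
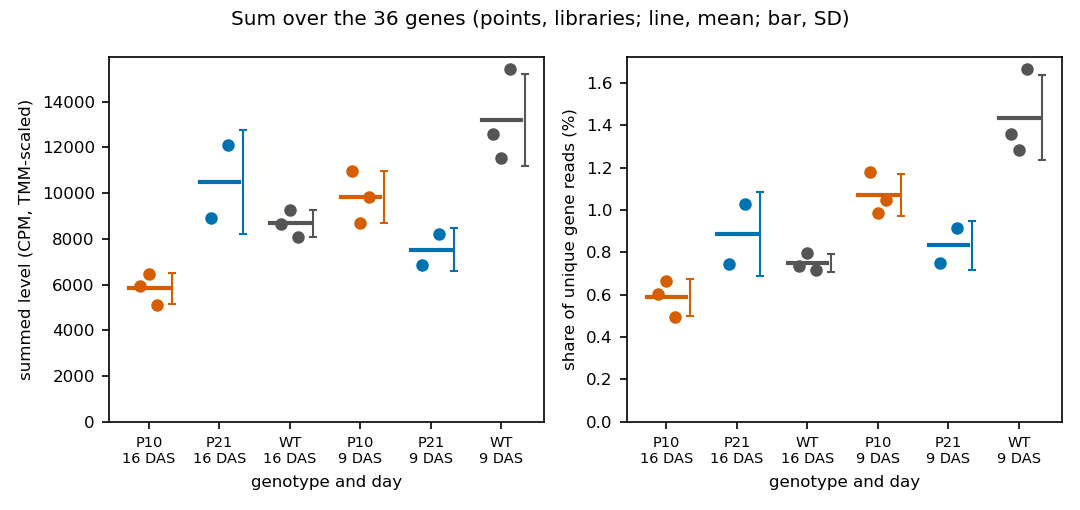
The sum of the 36 genes in each library, as TMM-scaled CPM (left) and as a percentage of unique gene reads (right), for P10, P21 and WT at 16 and then 9 DAS. P10 lies below WT at both days, whereas P21 lies below WT at 9 DAS only.

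**Figure D2:**
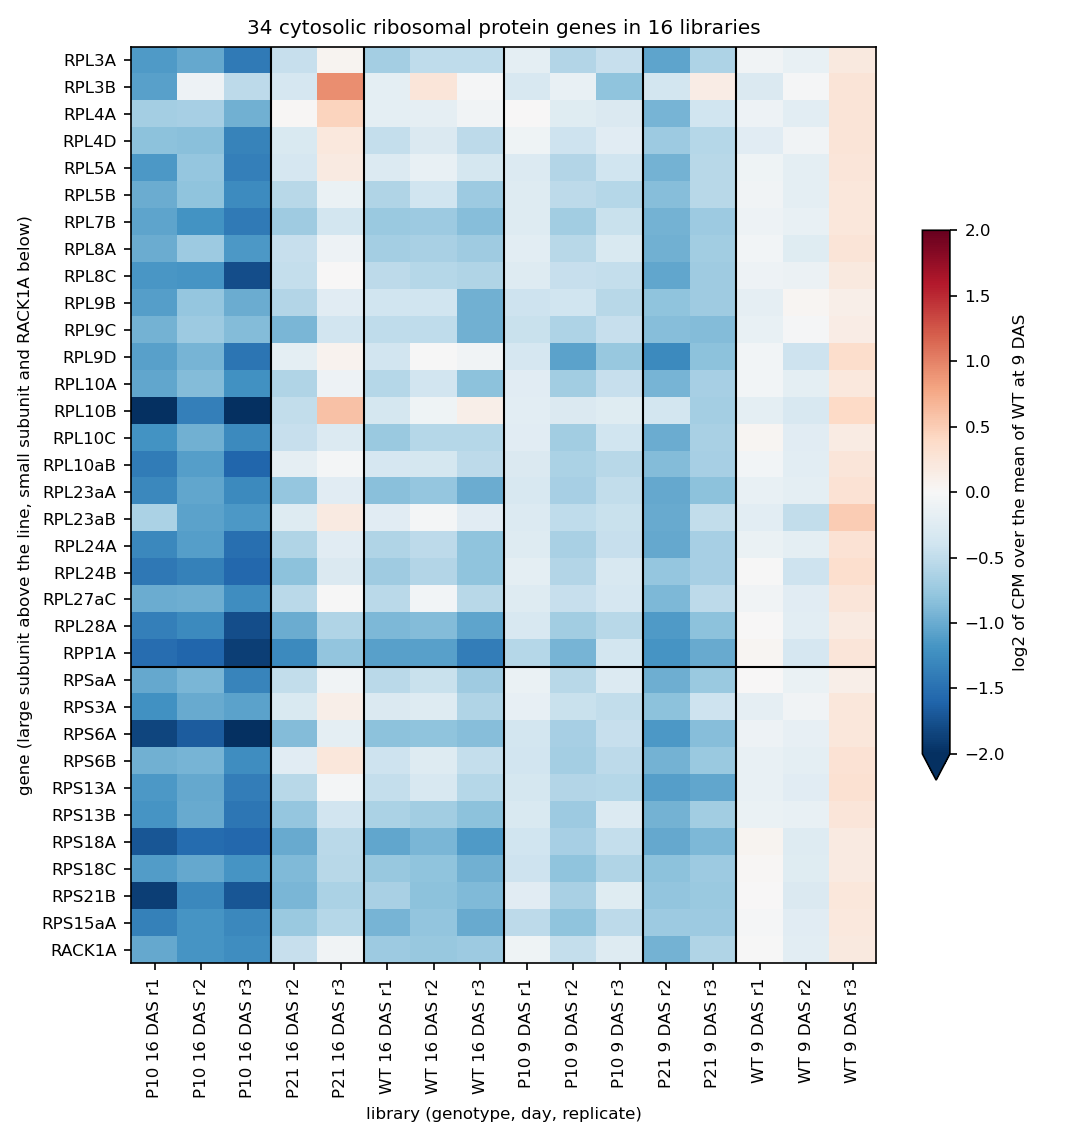
Colour shows the log2 ratio of CPM in each of 16 libraries (columns) to the mean of WT at 9 DAS for each of 34 genes (rows), with values under -2 drawn in the end colour. The values of P10 at 16 DAS are the lowest (dark blue) for most genes, and WT replicate 3 at 9 DAS is above 0 (light red) for all of them.

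P21 at 9 DAS had less RNA of nearly all of these genes than WT. Of the 36 genes, 31 fell at an adjusted p under 0.05 (3.4% of all 16499 genes fell by this rule) and none rose, and 25 of them fell by more than 0.75 on the log2 scale (2.78% of all genes), which makes them DEGs here. All 36 log2 fold changes were negative, between -1.09 and -0.10, with a median of -0.81, while the median of all genes was 0.02. In the large subunit 19 of 23 genes fell and in the small subunit 11 of 12, and RACK1A (AT1G18080) fell as well (adjusted p = 0.0116, log2 fold change -0.76, SE 0.17). The 5 genes that did not pass were RPL3B (log2 fold change -0.10, adjusted p = 0.905), RPL4D (log2 fold change -0.65, adjusted p = 0.0523), RPL10B (log2 fold change -0.54, adjusted p = 0.353), RPL23aB (log2 fold change -0.73, adjusted p = 0.0829) and RPS3A (log2 fold change -0.60, adjusted p = 0.0554).

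The largest change at 9 DAS was in RPP1A (AT1G01100), an acidic protein of the stalk, at 153 and 173 CPM in P21 and 358, 276 and 409.9 CPM in WT (adjusted p = 0.0035, log2 fold change -1.09, SE 0.21). RPS13A (AT3G60770), a small-subunit protein, was at 148 and 155 CPM in P21 and 289, 273 and 393 CPM in WT (adjusted p = 0.0022, log2 fold change -1.07, SE 0.19). Its copy RPS13B (AT4G00100), the POINTED FIRST LEAF2 gene, was at 166 and 197 CPM in P21 and 289.6, 288 and 379 CPM in WT (adjusted p = 0.0137, log2 fold change -0.81, SE 0.19). For these 3 genes both P21 libraries lay below all 3 WT libraries. RPL9D (AT4G10450), the least expressed of the RPL9 copies in the list, was at 35.5 and 48.6 CPM in P21 and 82.7, 64.7 and 109.8 CPM in WT (adjusted p = 0.0146, log2 fold change -1.03, SE 0.25). RPS6A (AT4G31700), one of a pair of genes for the S6 kinase substrate RPS6, was at 255 and 314 CPM in P21 and 529.7, 507 and 669 CPM in WT (adjusted p = 0.00698, log2 fold change -0.998, SE 0.21). Its copy RPS6B (AT5G10360) was at 205 and 236 CPM in P21 and 355, 341 and 480.05 CPM in WT (adjusted p = 0.0097, log2 fold change -0.83, SE 0.18). The P21 and WT libraries did not overlap for RPL9D, RPS6A or RPS6B either.

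The count depended on single libraries. Without P21 replicate 2 it was 2 of 36 in place of 31, without P21 replicate 3 it was 17, and without WT replicate 3 the number of DEGs was 10 in place of 25. The cell division markers moved in the same direction, with 3 of 11 past the test, of which PCNA2 and PCNA1 changed most, and a summed level of 255 to 257 CPM in P21 and 379.5 to 439 CPM in WT, and none was at 0 in a library of either group. Of 5 clock genes 0 passed the test, and the P21 and WT libraries overlapped for all 5. Their log2 fold changes were between -6.33 and 1.05, with a median of -2.62. CCA1 was at 132 and 241 CPM in P21 and 78.9, 26.2 and 225 CPM in WT. The column of P21 replicate 2 is headed with another sequencing lane than those of all other libraries, although the labels list the same lanes for it, and the part of the lane was not tested. With WT limited to replicates 1 and 3, which leaves out the library with low LHY, 32 of the 36 genes fell. The part of dividing cells and that of clock state in the result were not tested.

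P10 at 9 DAS was below WT for all 36 genes, but no gene passed the test. The log2 fold changes were between -0.69 and -0.17 with a median of -0.44, while the median of all genes was 0.01. By edgeR 0 of 36 genes had an adjusted p under 0.05 (0.158% of all genes fell by this rule, and 0.133% as DEGs). At an unadjusted p under 0.05 26 of the 36 were lower, beside 929 of all 16499 genes. The Wald test of DESeq2 passed 2. For 23 of the 36 genes all 3 P10 libraries lay below all 3 WT libraries, which held for 8.72% of all genes. RPS15aA (AT1G07770), a small-subunit protein, came closest to the threshold, at 300.2, 248 and 302 CPM in P10 and 426, 368 and 502 CPM in WT (adjusted p = 0.0565, log2 fold change -0.61, SE 0.14). RPS18C (AT4G09800) was at 221, 170.04 and 195 CPM in P10 and 301, 251 and 336 CPM in WT (adjusted p = 0.0728, log2 fold change -0.60, SE 0.15). Without WT replicate 2, 2 of the 36 genes passed. Both lines were compared with the same WT libraries, of which replicate 3 was the highest for all 36 genes, so the comparisons of the lines at this day are not independent.

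At 16 DAS the genes were lower in P10 than in WT. Of the 36 genes 24 fell (12.1% of all genes fell by the same rule) and none rose, and 9 fell by more than 0.75 (7.69% of all genes). All 36 log2 fold changes were negative, between -1.73 and -0.20, with a median of -0.57 and a median of 0.02 over all genes. Those that fell were 15 of 23 genes of the large and 9 of 12 of the small subunit, while RACK1A did not pass (log2 fold change -0.41, adjusted p = 0.0587). These libraries share one index. The green leaf markers were lower in P10 too, with a summed level of 47178 to 57148 CPM in P10 and 63684 to 73873 CPM in WT and 2 of 5 past the test, PSAD1 (log2 fold change -0.62, adjusted p = 0.00423) and RBCS1A (log2 fold change -0.49, adjusted p = 0.0164). None of the 5 was at 0 in a library, and their part in the result was not tested.

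RPS6A was at 159, 179 and 114 CPM in P10, 313 and 495 CPM in P21, and 321, 326 and 314 CPM in WT at 16 DAS (P10 against WT, adjusted p = 0.00032, log2 fold change -1.09, SE 0.19). RPS6B was at 201, 205 and 166 CPM in P10, 335 and 458 CPM in P21, and 294, 329 and 283 CPM in WT (P10 against WT, adjusted p = 0.00609, log2 fold change -0.66, SE 0.16). In both RPS6 genes the 3 P10 libraries lay below all others of that day. RPL10aB (AT2G27530), the PIGGYBACK1 gene, was at 161, 198 and 140.3 CPM in P10, 372 and 413 CPM in P21, and 337, 333 and 294 CPM in WT (P10 against WT, adjusted p = 0.000273, log2 fold change -0.95, SE 0.16). RPL9D was at 40.2, 45.2 and 31.3 CPM in P10, 74.6 and 90.1 CPM in P21, and 65.7, 85.6 and 81.2 CPM in WT (P10 against WT, adjusted p = 0.00326, log2 fold change -0.99, SE 0.22). The P10 libraries were again the lowest of the day for RPL10aB and RPL9D. RPL5A (AT3G25520), which binds the 5S ribosomal RNA and is known as PIGGYBACK3, was at 302, 389.8 and 260.3 CPM in P10, 532 and 757 CPM in P21, and 555, 606 and 522 CPM in WT (P10 against WT, adjusted p = 0.00243, log2 fold change -0.82, SE 0.18). RPL5B (AT5G39740), its copy, was at 263, 300.1 and 218 CPM in P10, 358 and 477 CPM in P21, and 346, 397 and 317 CPM in WT (P10 against WT, adjusted p = 0.0622, log2 fold change -0.44, SE 0.17). RPL5B did not pass the test, although its 3 P10 libraries lay below all others of that day. The RPL10B gene, with few reads, had the largest ratio, at 2.46, 6.9 and 4.36 CPM in P10, 12.7 and 26.7 CPM in P21, and 14, 16.9 and 19.4 CPM in WT (P10 against WT, adjusted p = 0.00134, log2 fold change -1.73, SE 0.35). Without P10 replicate 3, the lowest library of its group for 27 of the 36 genes, 14 genes fell in place of 24 and 5 in place of 9 were DEGs. Scaled to library totals alone, 13 genes fell and 3 were DEGs.

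P21 at 16 DAS did not differ from WT by the test for any of the 36 genes. By edgeR 0 passed (0.127% of all genes passed in either direction), and the Wald test of DESeq2 passed 0. At an unadjusted p under 0.05 7 of the 36 were higher in P21 and 0 lower, beside 725 of all 16499 genes higher. All 36 log2 fold changes were above 0, between 0.01 and 0.48, with a median of 0.25 beside 0.00 over all genes. For 10 of the 36 genes both P21 libraries lay above all 3 WT libraries, which held for 13.7% of all genes. RACK1A was at 399.8 and 524 CPM in P21 and 334, 328 and 335 CPM in WT (adjusted p = 0.353, log2 fold change 0.48, SE 0.17), the largest of these differences. A miss of the threshold does not show that the levels were alike: P21 replicate 3 lay above all WT libraries for all 36 genes, and replicate 2 for 10 of them and below all WT libraries for 6. Without replicate 3 of P21 the median log2 fold change of the 36 genes was -0.01.

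**Figure D3:**
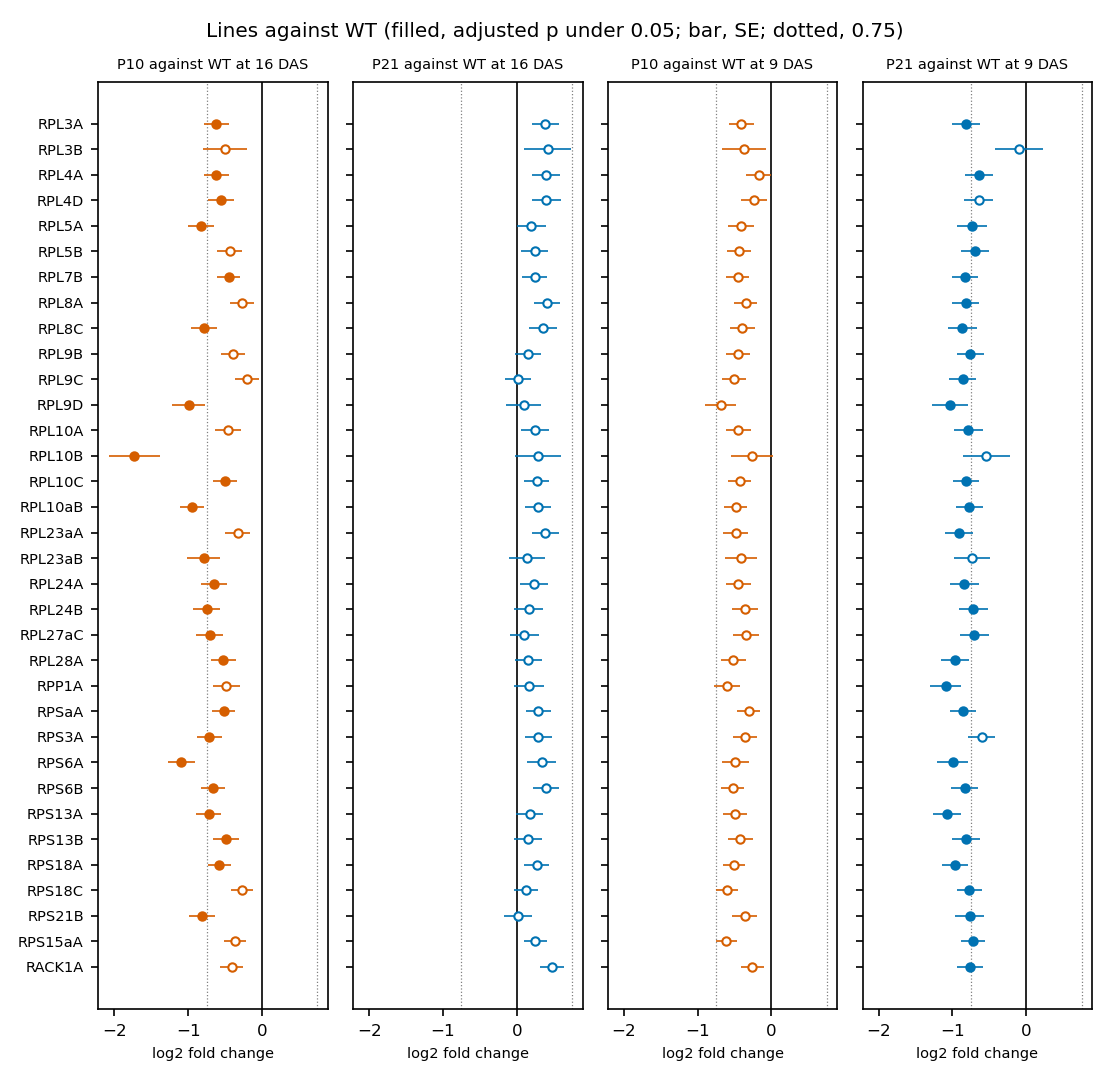
Log2 fold change of each of 34 of the 36 genes (rows) in P10 and P21 against WT at 16 DAS and at 9 DAS, with the standard error as a bar and filled points for an adjusted p under 0.05. All points lie below 0 for P10 at both days and for P21 at 9 DAS, and above 0 for P21 at 16 DAS.

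The lines differed from each other at 16 DAS. In P10 against P21, 33 of the 36 genes were lower at an adjusted p under 0.05 (10.5% of all genes) and 22 by more than 0.75 (7.32% of all genes), with a median log2 fold change of -0.87 beside 0.01 over all genes. Among genes with a mean of at least 50 reads RPS6A differed most (adjusted p = 7.51e-05, log2 fold change -1.43, SE 0.20), followed in size by RPL10aB (adjusted p = 6.92e-05, log2 fold change -1.24, SE 0.17) and RPL8C (AT4G36130), a protein near the catalytic centre (adjusted p = 0.00035, log2 fold change -1.14, SE 0.19). RPL9D was lower as well (adjusted p = 0.00339, log2 fold change -1.09, SE 0.24). RPL8C was at 89.5, 88.9 and 58.6 CPM in P10, 144 and 203 CPM in P21, and 139, 135 and 132 CPM in WT, with the P10 libraries below all others. Its copy RPL8A was at 285, 344 and 256 CPM in P10, 415 and 529 CPM in P21, and 356, 361 and 348 CPM in WT, and against WT it did not pass in P10 (log2 fold change -0.27, adjusted p = 0.254). Only RPL3B (log2 fold change -0.92, adjusted p = 0.0594), RPL9C (log2 fold change -0.21, adjusted p = 0.442) and RPS18C (log2 fold change -0.40, adjusted p = 0.0975) did not pass between the lines. Without P21 replicate 3 at 16 DAS the count was 9 in place of 33, and 7 in place of 22 DEGs. With library totals alone it was 21, and 10 DEGs. Other lists held genes that were lower in the same contrast. Past the test were 4 of 5 green leaf markers, 19 of 28 plastid ribosomal protein genes and 3 of 11 cell division markers. The green leaf markers summed to 47178 to 57148 CPM in P10 and 75124 to 79405 CPM in P21. The cell division markers as a list did not go one way, with 6 below 0, 5 above 0 and a median log2 fold change of -0.01. Of these markers MCM2 (log2 fold change -1.71, adjusted p = 0.00359) and PCNA1 (log2 fold change -1.45, adjusted p = 0.00834) changed most. Both rest on few reads, 5 to 56 per library for MCM2 and 2 to 36 for PCNA1. The sum of the cell division markers was 47.1 to 54.7 CPM in P10 and 67.1 to 83 CPM in P21. PYK10 was lower as well (log2 fold change -1.41, adjusted p = 0.0307). The part of these in the result was not tested. PID itself was higher in P10 than in P21 at this day (adjusted p = 0.0133, log2 fold change 0.67, SE 0.18).

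Between the days the genes fell in WT and in P10 and did not fall in P21. In P10 at 16 against 9 DAS 32 of the 36 genes fell (19.2% of all genes) and 16 by more than 0.75 (14.4%). In WT 26 fell (22.3% of all genes) and 10 by more than 0.75 (17.3%). In P21 none fell and 12 rose (15.5% of all genes rose by this rule), 5 of them by more than 0.75 (12.7%). The median log2 fold change of the 36 genes was -0.72 in P10, 0.48 in P21 and -0.57 in WT, while the medians of all genes were between -0.04 and -0.02. Every gene was lower at 16 DAS in P10, 35 of 36 were lower in WT, and all 36 were higher in P21, where the smallest change was 0.00 (RPS21B). The rise in P21 depended on the scaling, since with library totals alone its median was 0.09 beside -0.41 over all genes and 0 genes passed, and under either scaling the median of the 36 genes was above that of all genes.

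Among genes with a mean of at least 50 reads, RPS6A fell most between the days in P10, at 159, 179 and 114 CPM at 16 DAS and 442, 360.5 and 411 CPM at 9 DAS (adjusted p = 4.07e-06, log2 fold change -1.43, SE 0.19). RPS21B (AT3G53890), a small-subunit protein found only in eukaryotes, was at 58.3, 87.8 and 65.8 CPM at 16 DAS and 183, 137 and 182 CPM at 9 DAS in P10 (adjusted p = 1.27e-05, log2 fold change -1.23, SE 0.18). RPL24B (AT3G53020), known as SHORT VALVE1 and for a part in reinitiation after upstream reading frames, was at 115, 121 and 104 CPM at 16 DAS and 271, 206 and 246 CPM at 9 DAS (adjusted p = 6.41e-05, log2 fold change -1.09, SE 0.18). The days did not overlap in P10 for these genes. RPS18A (AT1G22780), the POINTED FIRST LEAF gene, was at 82.9, 93.5 and 91.9 CPM at 16 DAS and 206, 172 and 195 CPM at 9 DAS in P10 (adjusted p = 1.24e-05, log2 fold change -1.09, SE 0.16). RPL10B, with the fewest reads, had the largest ratio, at 2.46, 6.9 and 4.36 CPM at 16 DAS and 15.4, 14.6 and 15 CPM at 9 DAS (adjusted p = 0.000951, log2 fold change -1.60, SE 0.35). Each P10 library of 16 DAS was below each of 9 DAS for RPS18A and RPL10B too. RPL3B, RPL9C, RPL9D and RPL23aB did not pass in P10. Leaving out any one library left 27 to 33 genes that fell in P10, with 10 DEGs without P10 replicate 3 of 16 DAS.

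In WT the stalk gene RPP1A fell most, at 164, 164 and 133 CPM at 16 DAS and 358, 276 and 409.9 CPM at 9 DAS (adjusted p = 2.36e-05, log2 fold change -1.17, SE 0.18). RPS18A was at 133, 144 and 124 CPM at 16 DAS and 281, 227 and 308 CPM at 9 DAS in WT (adjusted p = 1.76e-05, log2 fold change -1.02, SE 0.15). The days did not overlap for RPP1A and RPS18A. RPL28A (AT2G19730), a large-subunit protein, was at 201, 204 and 180.3 CPM at 16 DAS and 378, 322 and 422 CPM at 9 DAS (adjusted p = 0.000109, log2 fold change -0.94, SE 0.17). The days did not overlap for RPL28A either. Among the 10 genes that did not pass in WT were RPL3B, RPL4A, RPL5A, RPL9D, RPL10B, RPL23aB, RPL27aC, RPS3A and RPS6B. Leaving out one library at a time gave 22 to 28 genes that fell in WT. The DEG count was 16 without WT replicate 2 of 9 DAS and 5 without WT replicate 3 of 9 DAS.

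In P21, RPL9D was at 74.6 and 90.1 CPM at 16 DAS and 35.5 and 48.6 CPM at 9 DAS (adjusted p = 0.00891, log2 fold change 0.97, SE 0.26). RPL4A (AT3G09630), which lines the exit tunnel, was at 352 and 472 CPM at 16 DAS and 182 and 263 CPM at 9 DAS (adjusted p = 0.00298, log2 fold change 0.89, SE 0.21). For RPL9D and RPL4A both libraries of 16 DAS lay above both of 9 DAS. RPS6B was at 335 and 458 CPM at 16 DAS and 205 and 236 CPM at 9 DAS (adjusted p = 0.00315, log2 fold change 0.85, SE 0.20), and RPS13A (adjusted p = 0.00623, log2 fold change 0.79, SE 0.20) was a DEG as well. The 7 genes that rose by less than 0.75 were RPL3A, RPL4D, RPL5A, RPL8A, RPL8C, RPL10aB and RPSaA. These calls rest on 2 libraries a day: without P21 replicate 3 of 16 DAS 0 genes passed, without replicate 2 of 9 DAS 1 passed, and without replicate 2 of 16 DAS 20 passed. The 5 DEGs became 0, 1 and 14 without the same libraries, and 10 without P21 replicate 3 of 9 DAS. All P21 libraries share one index.

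The cell division markers fell between the days in all genotypes, with 11 of 11 past the test in P10 and in WT and 7 of 11 in P21. Their summed level at 16 DAS was 47.1 to 54.7 CPM in P10, 67.1 to 83 CPM in P21 and 51 to 64.5 CPM in WT. At 9 DAS it was 328 to 389 CPM in P10, 255 to 257 CPM in P21 and 379.5 to 439 CPM in WT. No marker was at 0 in any library. In P21 12 of the 36 ribosomal protein genes thus rose while 7 of these 11 markers fell. CCA1, a morning gene of the clock, was at 557 to 672 CPM in the libraries of 16 DAS and at 26.2 to 259 CPM in those of 9 DAS. The part of clock state in the change between days was not tested.

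**Figure D4:**
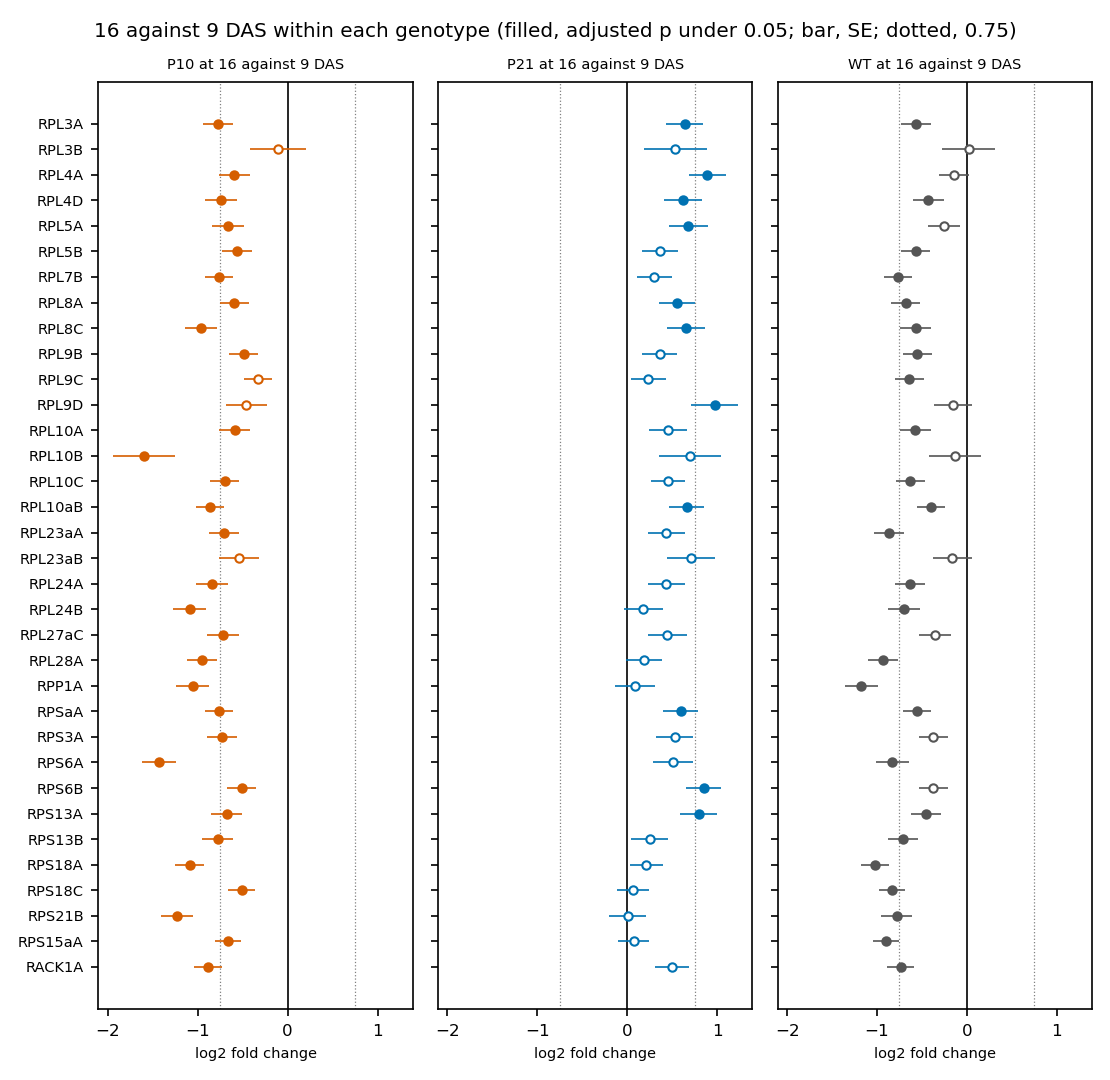
Log2 fold change of each of 34 of the 36 genes (rows) at 16 against 9 DAS in P10, P21 and WT, with the standard error as a bar and filled points for an adjusted p under 0.05. Nearly all points lie below 0 in P10 and WT, and all lie at or above 0 in P21.

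The change between the days was tested against that of WT. In P21 minus WT, 23 of the 36 genes were higher by the test, each by more than 0.75 (1.7% of all genes), 13 of the large subunit, 9 of the small subunit and RACK1A. The median difference of log2 fold changes was 1.06 beside -0.01 over all genes. It was largest in RPS6A (adjusted p = 0.0162, difference of log2 fold changes 1.33, SE 0.29), RPL23aA (AT2G39460), which lies at the exit of the tunnel (adjusted p = 0.0119, difference of log2 fold changes 1.30, SE 0.26), RPP1A, at 144 and 202 CPM in P21 at 16 DAS (adjusted p = 0.0197, difference of log2 fold changes 1.26, SE 0.29), and RPS13A (adjusted p = 0.0144, difference of log2 fold changes 1.25, SE 0.26). With library totals alone 22 genes were higher and the median was 1.01. Without P21 replicate 2 of 9 DAS or without P21 replicate 3 of 16 DAS 0 passed by edgeR, and without P21 replicate 3 of 9 DAS 13 did. Of the 11 cell division markers 2 were higher by the same test, PCNA1 (difference of log2 fold changes 2.12, adjusted p = 0.0134) and PCNA2 (difference of log2 fold changes 2.05, adjusted p = 0.00363). In this contrast WT, unlike P21, changes index between the days, so index and line cannot be told apart.

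In P10 minus WT 0 of 36 genes passed by edgeR and 0 by the Wald test of DESeq2. Of all genes 4.82% passed by edgeR in either direction, and 4.7% as DEGs. At an unadjusted p under 0.05 3 of the 36 were lower and 0 higher. By that rule 1766 of all 16499 genes were lower and 1462 higher. The 36 differences were between -1.47 (RPL10B) and 0.32 (RPS18C), with a median of -0.18 beside -0.01 over all genes. RPL10B came closest to the threshold (adjusted p = 0.0676, difference of log2 fold changes -1.47, SE 0.45). Library totals alone moved the median to 0.04, beside 0.20 over all genes. Leaving out one library (WT replicate 3 of 9 DAS, P10 replicate 2, P21 replicate 2 or P21 replicate 3 of 16 DAS) let 1 gene pass.

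Copies of one family did not always move alike between the days. The ratio of unique reads of 2 copies in one library needs no scaling factor, and the differences between copies are given here as a description without a test.

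The ratio of the RPS6 copies fell between the days in all 3 genotypes. The log2 ratio of RPS6A to RPS6B at 16 DAS was -0.34, -0.20 and -0.55 in P10, -0.10 and 0.11 in P21 and 0.13, -0.01 and 0.15 in WT. At 9 DAS it was 0.56, 0.56 and 0.59 in P10, 0.32 and 0.42 in P21 and 0.58, 0.58 and 0.48 in WT. The log2 ratio was above 0 in every library at 9 DAS and below 0 in every P10 library at 16 DAS, with no overlap between the days in any genotype. RPS6B in P10 at 9 DAS was at 299, 244 and 273 CPM. RPS6A fell in WT between the days (log2 fold change -0.83, adjusted p = 0.000891) and RPS6B did not pass there (log2 fold change -0.38, adjusted p = 0.0622), while in P10 both fell (RPS6B with a log2 fold change -0.51, adjusted p = 0.0159).

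RPL23aA and RPL23aB (AT3G55280), docking sites at the tunnel exit, did not move alike either. RPL23aA was at 208, 248 and 212 CPM in P10, 298 and 435 CPM in P21, and 286, 298 and 257 CPM in WT at 16 DAS, and at 409, 320.3 and 363 CPM in P10, 252 and 289.5 CPM in P21, and 462, 443 and 625 CPM in WT at 9 DAS. RPL23aB was at 88.7, 65.5 and 61.8 CPM in P10, 114 and 155 CPM in P21, and 117, 133 and 118 CPM in WT at 16 DAS, and at 113, 96.3 and 101 CPM in P10, 68.2 and 97.2 CPM in P21, and 119, 97.2 and 195 CPM in WT at 9 DAS. RPL23aA fell in WT between the days (log2 fold change -0.86, adjusted p = 0.000265) and RPL23aB did not pass (log2 fold change -0.16, adjusted p = 0.563), and their log2 ratio was lower at 16 DAS without overlap in P21 and WT and with overlap in P10. For the RPL5 pair the ratio went the other way, with RPL5A over RPL5B at 0.57 and 0.67 in P21 and 0.68, 0.61 and 0.72 in WT at 16 DAS, and at 0.26 and 0.35 in P21 and 0.33, 0.35 and 0.37 in WT at 9 DAS. In P10 it was 0.20, 0.38 and 0.25 at 16 DAS and 0.34, 0.30 and 0.52 at 9 DAS. For this pair the ratio was thus higher at 16 DAS in P21 and WT without overlap, and in P10 the days overlapped. At 9 DAS RPL5A was at 555, 446 and 509 CPM in P10, 349 and 456 CPM in P21, and 628, 587 and 792 CPM in WT, and RPL5B at 439.9, 363 and 355 CPM in P10, 291 and 358 CPM in P21, and 501, 459 and 614 CPM in WT. RPS13A over RPS13B was also higher at 16 DAS in P21 and WT without overlap, and overlapped in P10.

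**Figure D5:**
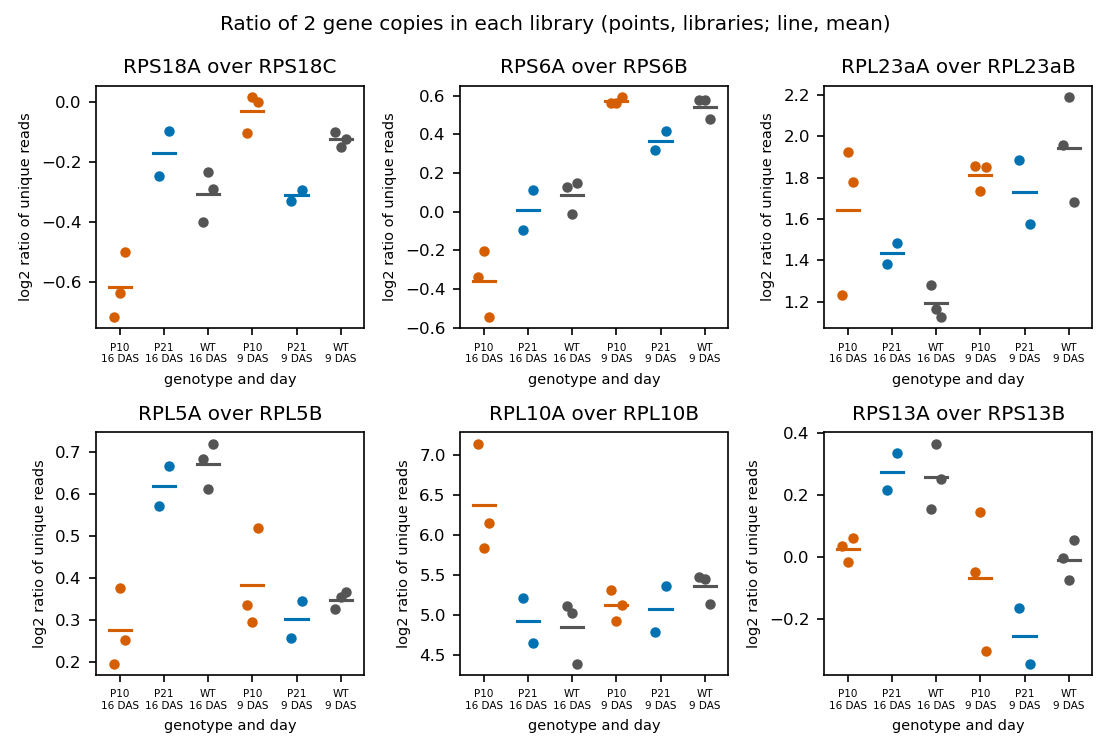
Log2 ratio of the unique reads of 2 copies of a family in each library (points) with the mean (line) for P10, P21 and WT at 16 and then 9 DAS. RPS6A over RPS6B is lower at 16 DAS in all genotypes, RPL23aA over RPL23aB in P21 and WT without overlap, and RPL10A over RPL10B is highest in P10 at 16 DAS.

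In the RPL10 family, known for RPL10A as a target of the antiviral NIK1 pathway, RPL10B stood apart from its copies in P10 at 16 DAS. The log2 ratio of RPL10A to RPL10B was 7.14, 5.83 and 6.15 in P10 at 16 DAS, above all other 13 libraries, which were at 4.39 to 5.47. RPL10B rests on few reads, from 3 to 87 per library. RPL10A was at 347, 393 and 309 CPM in P10, 472 and 666 CPM in P21, and 484, 549.7 and 405 CPM in WT at 16 DAS, and at 611, 441 and 523 CPM in P10, 378 and 454 CPM in P21, and 693, 625 and 831 CPM in WT at 9 DAS. RPL10C (AT1G66580) was at 101, 119 and 95.9 CPM in P10, 168 and 191 CPM in P21, and 138, 155 and 156 CPM in WT at 16 DAS, and at 198, 142 and 174 CPM in P10, 115 and 147 CPM in P21, and 238, 196 and 258 CPM in WT at 9 DAS. RPL10B at 9 DAS was at 15.4, 14.6 and 15 CPM in P10, 13.8 and 11.1 CPM in P21, and 15.6, 14.3 and 23.6 CPM in WT, so that its P10 libraries did not stand apart at that day. Against WT at 16 DAS, RPL10C fell in P10 (log2 fold change -0.50, adjusted p = 0.029) and RPL10A did not pass (log2 fold change -0.46, adjusted p = 0.0614).

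Of the RPL3 pair, which lies close to the catalytic centre, RPL3A (AT1G43170) fell in P10 against WT at 16 DAS (log2 fold change -0.62, adjusted p = 0.0119). It also fell in P21 against WT at 9 DAS (log2 fold change -0.81, adjusted p = 0.0137) and between the days in P10 and WT. RPL3B (AT1G61580) passed in no comparison. RPL3A was at 385, 416 and 318 CPM in P10, 615 and 885 CPM in P21, and 529, 595 and 595 CPM in WT at 16 DAS, and at 738, 562 and 615 CPM in P10, 409 and 556 CPM in P21, and 807, 769 and 969 CPM in WT at 9 DAS. RPL3B was at 20.5, 40.6 and 30.5 CPM in P10, 34.7 and 83 CPM in P21, and 38.3, 51.6 and 43.2 CPM in WT at 16 DAS, and at 35.2, 39.6 and 25.1 CPM in P10, 33.8 and 48.3 CPM in P21, and 35.9, 42.9 and 52.2 CPM in WT at 9 DAS, and overlapped between both lines and WT at both days. In the RPL9 family, RPL9B (AT1G33120) was at 81.3, 102 and 87.6 CPM in P10, 116 and 148 CPM in P21, and 132, 132 and 89.4 CPM in WT at 16 DAS, and at 131, 132 and 119 CPM in P10, 99.9 and 106 CPM in P21, and 155, 179 and 189 CPM in WT at 9 DAS. RPL9C (AT1G33140) was at 139.5, 162 and 147 CPM in P10, 142 and 205 CPM in P21, and 188, 189 and 137 CPM in WT at 16 DAS, and at 197, 174 and 194 CPM in P10, 149 and 147 CPM in P21, and 242, 264 and 297 CPM in WT at 9 DAS. For both RPL9B and RPL9C the P10 and WT libraries of 16 DAS overlapped. Neither RPL9B (log2 fold change -0.39, adjusted p = 0.0936) nor RPL9C (log2 fold change -0.20, adjusted p = 0.408) passed in P10 against WT at 16 DAS, where RPL9D fell. At 9 DAS RPL9D was at 67.8, 40.8 and 50.8 CPM in P10.

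RPL4A and RPL4D (AT5G02870) both fell in P10 and rose in P21 between the days, and in WT RPL4D fell (log2 fold change -0.43, adjusted p = 0.0483) and RPL4A did not pass (log2 fold change -0.14, adjusted p = 0.51). Their log2 ratio, RPL4A over RPL4D, was higher at 16 DAS without overlap in P21 (-0.09 and -0.18 at 16 DAS and -0.62 and -0.25 at 9 DAS), and the days overlapped in P10 and WT. RPL4A was at 217, 218 and 177 CPM in P10, 352 and 472 CPM in P21, and 303, 307 and 331 CPM in WT at 16 DAS, and at 346, 292 and 283 CPM in P10, 182 and 263 CPM in P21, and 324, 301 and 414 CPM in WT at 9 DAS. RPL4D was at 263, 259 and 183 CPM in P10, 374 and 535 CPM in P21, and 332, 379 and 320.4 CPM in WT at 16 DAS, and at 435, 346 and 397 CPM in P10, 279.7 and 312 CPM in P21, and 395, 441 and 553 CPM in WT at 9 DAS. Against WT at 9 DAS RPL4A fell in P21 (log2 fold change -0.64, adjusted p = 0.0491) and RPL4D just missed the threshold, with nearly the same fold change. The difference between the copies was not tested.

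RPS13A was at 144, 157 and 122 CPM in P10, 216 and 309.6 CPM in P21, and 229, 255 and 214 CPM in WT at 16 DAS, and at 249, 213 and 214 CPM in P10 at 9 DAS. RPS13B was at 140.4, 159 and 117 CPM in P10, 186 and 245 CPM in P21, and 205, 198 and 179.6 CPM in WT at 16 DAS, and at 258, 192 and 264 CPM in P10 at 9 DAS. Both RPS13 genes fell in P10 against WT at 16 DAS, with log2 fold changes of -0.72 for RPS13A and -0.49 for RPS13B. RPS13A rose between the days in P21 and RPS13B did not pass (log2 fold change 0.25, adjusted p = 0.387). RPS18A was at 82.9, 93.5 and 91.9 CPM in P10, 136 and 188 CPM in P21, and 133, 144 and 124 CPM in WT at 16 DAS, and at 206, 172 and 195 CPM in P10, 134 and 146 CPM in P21, and 281, 227 and 308 CPM in WT at 9 DAS. RPS18C was at 136, 145 and 129.9 CPM in P10, 161 and 201 CPM in P21, and 175, 169.5 and 152 CPM in WT at 16 DAS, and at 221, 170.04 and 195 CPM in P10, 168 and 179 CPM in P21, and 301, 251 and 336 CPM in WT at 9 DAS. Of the RPS18 pair, RPS18A fell in P10 against WT at 16 DAS (log2 fold change -0.58, adjusted p = 0.0109) and RPS18C did not pass (log2 fold change -0.27, adjusted p = 0.203). RPL8A at 9 DAS was at 492, 386 and 459 CPM in P10, 291 and 352 CPM in P21, and 544, 479 and 681 CPM in WT, and RPL8C at 168, 146 and 145 CPM in P10, 98.2 and 123 CPM in P21, and 188, 186 and 229.7 CPM in WT.

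RPL24A (AT2G36620), the copy of SHORT VALVE1, was at 83.7, 96.2 and 72.5 CPM in P10, 136 and 175 CPM in P21, and 136, 143 and 118 CPM in WT at 16 DAS, and at 171, 132 and 149 CPM in P10, 101 and 129 CPM in P21, and 187, 179.7 and 250.4 CPM in WT at 9 DAS. RPL24B was at 115, 121 and 104 CPM in P10, 174 and 251 CPM in P21, and 188, 205 and 176 CPM in WT at 16 DAS, and at 181 and 195 CPM in P21 and 306, 231 and 388 CPM in WT at 9 DAS. Both RPL24 genes were lowest in P10 at 16 DAS, without overlap with P21 or WT. Their calls parted once, where the change of P21 minus WT passed for RPL24A (difference of log2 fold changes 1.07, adjusted p = 0.0332) and not for RPL24B (difference of log2 fold changes 0.88, adjusted p = 0.0944). Of the members with no other copy in the list, several passed both against WT at 9 DAS in P21 and at 16 DAS in P10. RPL7B (AT2G01250), RPL27aC and RPSaA (AT1G72370), a protein at the back of the small subunit, fell in P21 at 9 DAS, with log2 fold changes of -0.83, -0.70 and -0.86 and in P10 at 16 DAS, with -0.45, -0.71 and -0.52. RPS3A (AT2G31610), which lies at the entry of the message channel, fell in P10 at 16 DAS (adjusted p = 0.00438, log2 fold change -0.72, SE 0.17) and missed the threshold in P21 at 9 DAS.

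The 176 other cytosolic ribosomal protein genes, of which 167 passed the filter, were tested in the same fits. The shares of all genes given above for a comparison and direction belong beside the counts of this and the following lists too. In P10 against WT at 9 DAS 6 fell by edgeR and 29 by DESeq2, with a median log2 fold change of -0.52. At an unadjusted p under 0.05 139 were lower (929 of all 16499 genes). In P21 against WT at 9 DAS 133 fell and 0 rose, with a median log2 fold change of -0.84, and in P10 against WT at 16 DAS 119 fell, with a median of -0.58. In P21 against WT at 16 DAS 0 passed by edgeR and 0 by DESeq2, and 9 were higher at an unadjusted p under 0.05 (725 of all 16499 genes). Between the days 143 fell in P10, 0 fell and 43 rose in P21, and 124 fell in WT. The largest changes in P21 at 9 DAS were in RPS11B (log2 fold change -1.26, adjusted p = 0.0387) and RPL11B (log2 fold change -1.20, adjusted p = 0.00609), a partner of RPL5 in binding the 5S ribosomal RNA. In P10 at 16 DAS they were in RACK1B (log2 fold change -1.35, adjusted p = 0.00276) and RPL35B (log2 fold change -1.35, adjusted p = 9.67e-05). RPS9C rose between the days with log2 fold changes of 2.31 in P10, 2.49 in P21 and 2.61 in WT. In P10 and WT most genes of this list went the other way.

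The nuclear genes for plastid ribosomal proteins serve translation in chloroplasts. In P21 against WT at 9 DAS 0 of 28 passed by edgeR and 1 by DESeq2, and the median log2 fold change was -0.26. At an unadjusted p under 0.05 7 of the 28 were lower (1791 of all 16499 genes). All 28 were below 0, and for 25 of 28 the P21 and WT libraries did not overlap (3103 of 16499 genes were lower without overlap). In P10 against WT at 16 DAS 7 of 28 fell and all 28 were below 0, with a median of -0.29, and PRPL31 changed most (log2 fold change -0.66, adjusted p = 0.000762). Between the days 28 of 28 fell in P10 and 26 of 28 in WT, with medians of -0.85 in P10 and -0.65 in WT, while in P21 1 rose and 0 fell. Whether the plastid and cytosolic lists differ was not tested.

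Ribosome biogenesis factors process ribosomal RNA and assemble the subunits. Against WT, 24 of 31 fell in P10 at 16 DAS (median log2 fold change -1.10) and 9 in P21 at 9 DAS (median log2 fold change -0.71). Of all genes 12.1% fell in P10 at 16 DAS and 3.4% in P21 at 9 DAS. The fall in P10 at 16 DAS was largest in FIB2, a fibrillarin that methylates ribosomal RNA (log2 fold change -2.23, adjusted p = 4.82e-05), and SWA2, a factor of pre-ribosome export (log2 fold change -1.97, adjusted p = 2.28e-05). Between the days 4 fell in P10 (19.2% of all genes fell), 28 rose in P21 (15.5% of all genes rose) and 15 rose in WT. Of all 16499 genes 3936 rose in WT by this rule. None of the biogenesis factors fell in WT. SWA2 (log2 fold change 1.35, adjusted p = 0.000113) and NRPA1, the largest subunit of RNA polymerase I (log2 fold change 1.25, adjusted p = 0.000149), rose most in WT. Of 27 elongation and initiation factors 12 fell in P21 at 9 DAS (3.4% of all genes). In P10 at 16 DAS 10 fell (12.1% of all genes) and 1 rose (1728 of all 16499 genes). Between the days in P21 18 rose (15.5% of all genes). Of 7 genes of the TOR and S6 kinase pathway 0 passed by edgeR or by DESeq2 in either line against WT at either day. At an unadjusted p under 0.05 1 of 7 was higher in P10 at either day and 1 of 7 in P21 at 9 DAS. Of all 16499 genes 1089 were higher by this rule in P10 at 9 DAS, 2774 in P10 at 16 DAS and 1763 in P21 at 9 DAS. S6K1 rose between the days with log2 fold changes of 1.89 in P10, 1.46 in P21 and 1.92 in WT.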

How the data were processed

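RNA of first leaves was sequenced after stranded mRNA library preparation, and the authors used CLC Genomics Workbench at default settings to trim reads and map them to the Col-0 TAIR10 genome. The deposited tables give read counts per gene region, introns included. Unique gene read counts were used, and total counts, which add reads with several places, as an alternative. Another 428 per-sample columns were not used. The study's methods call the sequenced samples replicates and do not say whether they are biological. Depth limits the low genes first, and intervals were not computed from it.

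Counts were fitted with edgeR 4.0.16 (robust quasi-likelihood test, TMM scaling, low counts filtered by group) in R 4.3.3, with a mean for each of 6 genotype and day groups over 16 libraries. Of 28642 loci 12143 were removed and 16499 tested, with Benjamini-Hochberg adjustment over all of them. Between replicates the coefficient of biological variation came to 18.8%, on 10 residual degrees of freedom. An adjusted p under 0.05 was required for rose or fell, and also a log2 fold change beyond 0.75 for a DEG.

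The members, lists and rules were chosen with earlier results of these data known. Values in every library are given for the 4 largest changes of each comparison that passed the test in genes of at least 50 reads on average, and for the copies of a family of which only some passed, except 2 of the 36 genes, which enter the counts and sums but are not reported here singly. Genes outside that rule, such as RPL10B, RPS15aA, RPS18C at 9 DAS, RACK1A and RPS3A, were named after their values were seen. From other lists at most the 2 largest changes are named, besides PID, S6K1, CCA1, LHY, PYK10, KNAT1 and WUS. Alternatives were other scalings, DESeq2 1.42.0, no filter, only the groups compared, a replicate block, total counts, no fold change threshold, fewer libraries at 9 DAS and each library left out. Sequences and motif searches used the RefSeq annotation of TAIR10.1.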

Additional observations from a re-analysis of the deposited data

Results flagged for a closer look

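The results below are those in which the effects of groups were themselves tested to differ. The change between the days differed between P21 and WT for 23 of the 36 genes by the interaction term of edgeR, with P21 above WT. Among the named genes the difference of log2 fold changes was 1.33 for RPS6A, 1.30 for RPL23aA, 1.26 for RPP1A and 1.25 for RPS13A. Without P21 replicate 2 of 9 DAS or P21 replicate 3 of 16 DAS 0 genes passed.

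At 16 DAS the lines differed from each other, P10 below P21, for 22 of the 36 genes as DEGs. The log2 fold change of P10 against P21 was -1.43 for RPS6A, -1.24 for RPL10aB, -1.14 for RPL8C and -1.09 for RPL9D. Without P21 replicate 3 of 16 DAS 7 genes were DEGs. Explanations for these differences were not tested.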

How the results depend on the processing

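Of 672 values of the named members under 24 settings 642 kept their direction and their side of the threshold, 30 kept the direction and missed the threshold, and 0 reversed. These members were chosen as the largest changes, and 16 of the settings left out 1 library. For many values that library lay outside the groups compared, so they could move little. The numbers of DEGs among the 36 genes moved more. With library totals alone they were 3 in P10 against WT at 16 DAS, 10 in P10 against P21 at 16 DAS, and, at 16 against 9 DAS, 25 in P10, 0 in P21 and 25 in WT. Without the fold change threshold they were 24 in P10 against WT at 16 DAS, and, between the days, 32 in P10, 12 in P21 and 26 in WT. Leaving out one library at a time gave 0 in P10 against WT and in P21 against WT at 16 DAS, 2 to 32 in P21 against WT at 9 DAS, 5 to 13 in P10 against WT at 16 DAS, 7 to 32 in P10 against P21, 10 to 23 in P10, 0 to 14 in P21 and 5 to 16 in WT between the days, 0 to 1 in the change of P10 and 0 to 30 in the change of P21. These settings leave fewer samples, and for the scaling the cause was not tested. Replicate numbers did not pair the samples by the rule used, since 4 of 14 correlations of same-numbered deviations were over 0.1 (lowest -0.28, highest 0.48), among them all 3 pairs of replicate 2 at 9 DAS. The replicate block was fitted within each day, so its change between the days sets replicate 1 of 16 DAS against replicate 3 of 9 DAS. It does not compare the means of the days, and its counts between the days cannot show how far pairing matters. They were 25 DEGs in P10, 0 in P21 and 16 in WT, and 0 in place of 12 genes rose in P21 by the adjusted p alone. The 24 settings above include this block. No other count of DEGs moved beyond 1.5 times with it.

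The median of the 36 genes changed sign under 1 setting each in P21 against WT at 16 DAS (-0.01 without P21 replicate 3) and in the change of P10 (0.04 with library totals alone). Library totals alone moved the median of all genes between the days to -0.15 in P10, -0.41 in P21 and -0.38 in WT. Without replicate 2 of both P10 and WT of 9 DAS, 33 genes passed in P10 and 26 in WT between the days. P21 rests on 2 libraries a day. At 3 to 87 reads, RPL10B is the least precise of the 36 genes.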
